A study of Mus musculus with 6 samples.

Results

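The genes described here encode the 8 subunits of the cytosolic chaperonin CCT (also called TRiC): Tcp1, which codes for the alpha subunit, and Cct2, Cct3, Cct4, Cct5, Cct6a, Cct7 and Cct8. They were chosen by name, and each stood on 1 of 47728 gene rows in each of 4 tables. RNA-seq had been performed on 3 libraries of ovulated Kdm1a Zp3 oocytes and on 3 libraries of Kdm1a Zp3 M-Z+ 2C embryos. Control oocytes (Kdm1a fl/fl) and control M+Z+ 2C embryos from Kdm1a fl/fl mothers came from an earlier study. Wherever a mutant is set against a control, genotype and study of origin therefore cannot be told apart. The mutant mothers carried a Cre transgene driven by the Zp3 promoter, which is active in growing oocytes. The labels give their Kdm1a alleles as fl/fl, whereas the study describes 1 floxed and 1 deleted allele. Kdm1a, also called Lsd1, codes for a histone demethylase. The M-Z+ embryos came from such mothers crossed with wild-type CB6 males, so they lacked maternal KDM1A and kept a paternal allele, and litters were pooled at embryonic day 1.5. The age of the mothers is not given in the sources used here.

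CCT is a double ring built from related subunits, each of which takes a fixed place in the ring. It binds unfolded or partly folded proteins in its cavity and closes over them as ATP is hydrolysed. Actin and tubulin depend on it for folding, as do several proteins with WD40 repeats and some regulators of the cell cycle. In budding yeast the subunits corresponding to Tcp1, Cct2, Cct4 and Cct5 bind ATP tightly, whereas those corresponding to Cct3, Cct6a, Cct7 and Cct8 bind it weakly. Fertilized mouse eggs start from stored maternal mRNA, most of which is cleared while the embryo's own genome is switched on at the 2C stage, a handover called the maternal-to-zygotic transition.

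Promoter windows of 7 members were found in the RefSeq table of GRCm38.p6, and Cct4 had no entry. Each window ran from 250 bases before to 50 bases after the outermost annotated start of the gene. The windows of 4 members are shown because, in M+Z+ embryos, these genes lay at both ends of the difference between oocytes and 2C embryos: Cct6a and Tcp1 had far higher means in embryos, and Cct8 and Cct5 had similar means in both. Capitals mark the GC box GGGCGG, or CCGCCC where it lies on the other strand. The Cct6a window is chr5:129787106-129787405 (plus strand), that of Tcp1 chr17:12916079-12916378 (plus strand), that of Cct8 chr16:87495820-87496119 (minus strand) and that of Cct5 chr15:31601797-31602096 (minus strand).
Cct6a: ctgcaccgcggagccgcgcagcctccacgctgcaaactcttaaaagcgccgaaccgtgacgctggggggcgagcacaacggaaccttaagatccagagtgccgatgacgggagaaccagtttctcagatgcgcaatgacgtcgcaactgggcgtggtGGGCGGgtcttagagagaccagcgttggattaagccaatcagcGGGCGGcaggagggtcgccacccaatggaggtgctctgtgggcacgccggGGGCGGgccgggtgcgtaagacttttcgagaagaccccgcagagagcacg
Tcp1: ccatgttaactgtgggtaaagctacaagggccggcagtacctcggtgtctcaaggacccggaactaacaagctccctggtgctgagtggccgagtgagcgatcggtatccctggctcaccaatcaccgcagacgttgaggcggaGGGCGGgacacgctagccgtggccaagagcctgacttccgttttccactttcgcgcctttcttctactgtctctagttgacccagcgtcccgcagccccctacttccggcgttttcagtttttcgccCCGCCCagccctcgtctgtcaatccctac
Cct8: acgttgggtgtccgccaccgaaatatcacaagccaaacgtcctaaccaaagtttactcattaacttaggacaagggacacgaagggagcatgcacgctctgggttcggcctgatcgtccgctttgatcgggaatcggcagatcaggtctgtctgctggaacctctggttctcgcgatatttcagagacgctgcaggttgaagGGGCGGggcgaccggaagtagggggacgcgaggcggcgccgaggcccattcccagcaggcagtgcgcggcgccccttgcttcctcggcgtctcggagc
Cct5: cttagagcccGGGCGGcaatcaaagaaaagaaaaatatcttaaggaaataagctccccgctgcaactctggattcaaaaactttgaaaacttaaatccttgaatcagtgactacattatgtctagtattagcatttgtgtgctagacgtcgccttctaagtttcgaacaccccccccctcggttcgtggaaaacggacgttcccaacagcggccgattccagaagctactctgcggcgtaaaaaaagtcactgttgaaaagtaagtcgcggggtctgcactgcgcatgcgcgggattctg

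The GC box was found on either strand in 7 of 7 member windows, against 35.7% of 32851 promoter windows in the table. Shares over all windows count every listed start of 27025 genes, whereas each member had 1 window. The Cct6a window held 3 copies, Tcp1 held 2, and Cct8 and Cct5 held 1 each. Cct2 had the most, with 5 copies. The motif was present in windows of genes with much higher means in 2C embryos and of genes without. Its relation to the difference between stages was not tested. The heat shock element core GAANNTTC was found in 0 of 7 member windows and in 7.86% of all windows. The E-box CACGTG was likewise in 0 of 7 against 7.15%, and TATAAA in 0 of 7 against 13.6%. All motifs were searched on both strands, and no motif is contained in another. GC content of the member windows ranged from 47.3% in Cct5 to 67.7% in Cct7. Of the 7, all but Cct5 lay above the median of 52.7% over all windows, and the GC box is itself made of G and C only. Its share was not compared at matched GC content.

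The values are the authors' group means of normalized read counts, with no value per library. No SD or test can therefore be given for any of them, the number of control libraries is not given in the labels used here, the depth of the libraries is unknown, and whether a difference exceeds the spread between libraries was not tested. Each table had been scaled on its own, and levels are therefore set side by side within 1 table at a time. Ratios were computed as log2 of the ratio of the means, each with a pseudocount of 1 added, which understates the differences of low genes. A gene was called higher or lower from a 2-fold ratio, and directions are those of the group named first, and the background was every gene whose mean reached 10 in 1 group or both. All 8 members passed that minimum in all 4 tables. The counts are median normalized, so a difference in total mRNA per oocyte or embryo cannot be seen in them. Reads of any other cells collected with the oocytes or embryos cannot be told apart from their own.

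As a check of the labels, the mean of Kdm1a was 6.37 in Kdm1a Zp3 oocytes beside 921 in control oocytes, and 14.5 in M-Z+ beside 1254 in M+Z+ embryos. Oocyte markers (zona pellucida genes, Gdf9, Bmp15, Oosp1, Nlrp5 and Zar1) were above 0 in every group. In M+Z+ embryos 7 of these 8 were at least 2-fold lower than in control oocytes, whereas in M-Z+ embryos 2 of 8 were, and 6 of 8 were called higher in M-Z+ than in M+Z+ embryos. Their summed mean was 119474 in control oocytes and 12181 in M+Z+ embryos of one table, and 79135 in control oocytes and 76113 in M-Z+ embryos of another. Of 7 markers of the 2C stage, 6 were called higher in M+Z+ embryos than in control oocytes and 4 in M-Z+ embryos. Of the same 7, 6 were called lower and 1 higher in M-Z+ than in M+Z+ embryos. Tdpoz1 was listed at 0 in M-Z+ beside 712 in M+Z+ embryos, Zfp352 had means of 1064 and 2237, and Tcstv1, the one called higher, of 629 and 31.5. Markers of blood, and of cumulus and granulosa cells other than Cyp19a1, had means of at most 18.1 in every group. Cyp19a1, the aromatase gene, had a mean of 4237 in Kdm1a Zp3 beside 957 in control oocytes, and of 5.55 in M+Z+ embryos and 1488 in M-Z+ embryos. Foxl2 and Amh, which define granulosa cells, were listed at 0 in every group. The oviduct gene Ovgp1 had a mean of 221 in M+Z+ embryos and was listed at 0 in control oocytes. In the direct comparison of embryos it had a mean of 154 in M+Z+ and 1.01 in M-Z+ embryos (log2 ratio -6.27), lower in the latter as the CCT genes were. The sperm gene Prm2 had a mean of at most 32.5. The part of these other genes in the results below was not tested.

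The first comparison asked how mRNA levels of the embryo differ from those of the oocyte across a normal maternal-to-zygotic transition. Of the 8 CCT genes, 5 were called higher in M+Z+ embryos (Cct6a, Cct4, Tcp1, Cct3 and Cct7) and none was called lower. Among all 16674 genes, 40.8% were called higher and 35.0% lower. The median log2 ratio was 1.94 for the 8 members and 0.21 for all genes, and 8 of 8 members were above 0. Against the median of all genes, 7 were above and Cct5 was below. The members differed widely among themselves, from 0.04 for Cct5 to 6.44 for Cct6a.

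Among the subunits whose yeast counterparts bind ATP tightly, Tcp1 had a mean of 775 in control oocytes and 8895 in M+Z+ embryos, which is 11.5-fold higher (log2 ratio 3.52). Cct4, the delta subunit, had a mean of 242 in control oocytes and 4389 in M+Z+ embryos, an 18.0-fold difference (log2 ratio 4.17). Cct2, the beta subunit, went with them in direction only, with 1528 in oocytes and 2873 in embryos (log2 ratio 0.91). Cct5, the epsilon subunit, had nearly equal means of 1608 and 1654.

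Among those whose yeast counterparts bind ATP weakly, Cct6a, the zeta subunit, had a mean of 85.0 in control oocytes and 7443 in M+Z+ embryos. This is an 86.5-fold difference, and its log2 ratio of 6.44 was higher than that of 95.3% of all genes. Cct3, the gamma subunit, had means of 949.8 and 4031 (log2 ratio 2.08), and Cct7, the eta subunit, of 489.5 and 1694 (log2 ratio 1.79). Both were inside the interquartile range of all genes, whose upper quartile was 2.76. Cct8, the theta subunit, had means of 2780 and 3985 (log2 ratio 0.52).

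**Figure D1:**
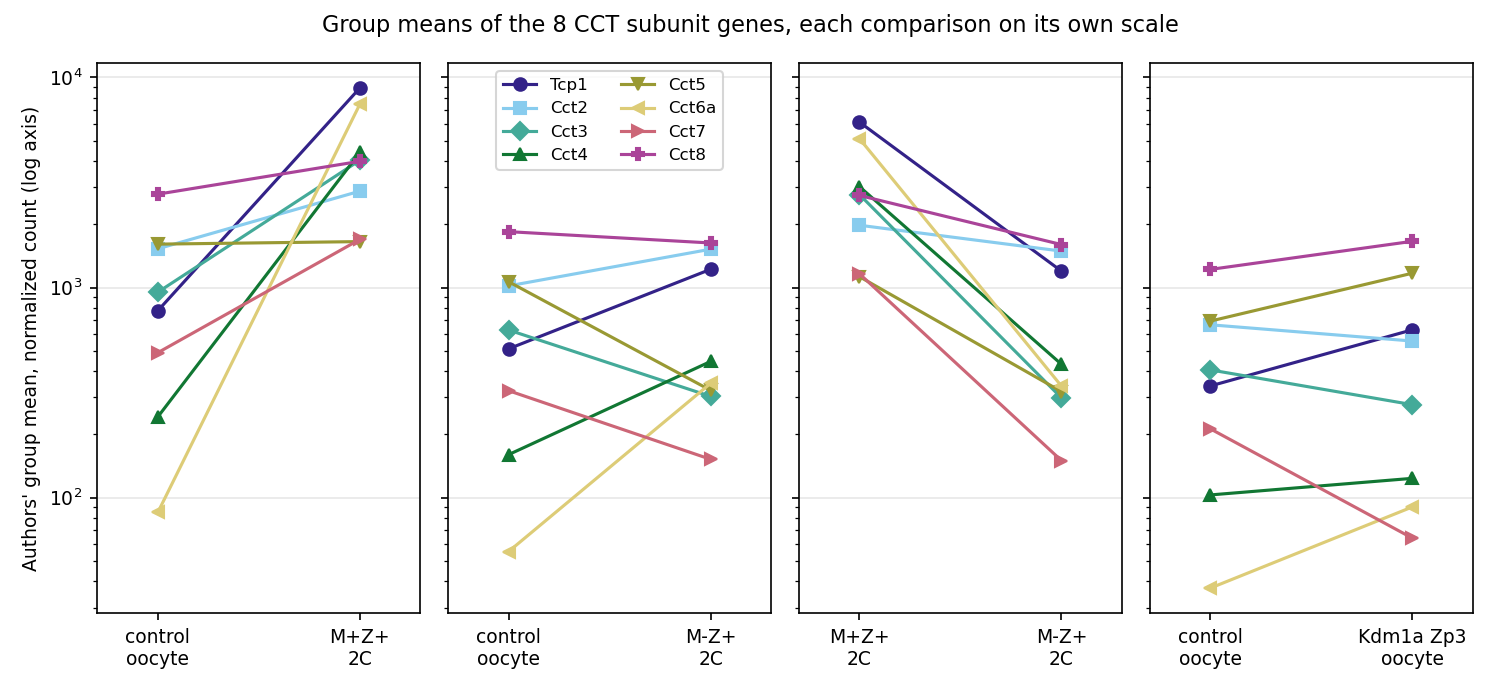
Authors' group means of the 8 CCT genes (normalized read count, log axis) in control oocytes and M+Z+ embryos, control oocytes and M-Z+ embryos, M+Z+ and M-Z+ embryos, and control and Kdm1a Zp3 oocytes, each panel on the scale of its own table and with no error bars because no values per library were used. The lines in the first panel converge towards the right, from 85.0 to 2780 in control oocytes to 1654 to 8895 in M+Z+ embryos, and in the third panel all 8 lines fall.

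The next comparison set M-Z+ embryos against the same control oocytes, to ask how far embryos without maternal KDM1A had moved from the oocyte state. Here 3 members were called higher (Cct6a, Cct4 and Tcp1) and 3 lower (Cct5, Cct7 and Cct3). Of all 14095 genes, 28.1% were called higher and 32.5% lower. The median of the members was 0.20 and that of all genes -0.14 on the log2 scale. These ratios share the control oocyte libraries with those above, so their values are only set side by side.

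The 3 members called higher were also the 3 with the highest ratios in M+Z+ embryos, at lower values here. Cct6a had a mean of 55.4 in control oocytes and 350.1 in M-Z+ embryos, with a log2 ratio of 2.64 beside 6.44 in M+Z+ embryos. Cct4 had means of 160.3 and 445, with 1.47 beside 4.17. Tcp1 had means of 511 and 1221, with a log2 ratio of 1.26 (2.39-fold) beside 3.52.

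Cct3 and Cct7 were called in opposite directions in the 2 kinds of embryo. Cct3 had a mean of 628 in control oocytes and 303 in M-Z+ embryos (log2 ratio -1.05, beside 2.08 in M+Z+ embryos). Cct7 had means of 323 and 152 (log2 ratio -1.08, beside 1.79). Both lay close to the 2-fold threshold and are not called when ratios are centred on the median of all genes (-0.91 and -0.94). Cct5 was lower by more, from 1065 to 324 (log2 ratio -1.71), although its means in control oocytes and M+Z+ embryos were nearly equal. Cct2 (1018 and 1521, log2 ratio 0.58) and Cct8 (1844 and 1629, log2 ratio -0.18) were not called.

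The direct comparison of the embryos then asked how embryos with and without maternal KDM1A differ at the 2C stage. All 8 CCT genes had lower means in M-Z+ than in M+Z+ embryos, 6 of them by at least 2-fold. None was called higher. Among all 15798 genes, 42.1% were called lower and 32.3% higher. The members' median log2 ratio was -2.58, and that of all genes -0.37, with a lower quartile of -2.94. All 8 members were below the all-gene median, and only Cct6a, Cct3 and Cct7 were below the lower quartile. These ratios share the M+Z+ embryo libraries with the first comparison. A gene with a high mean in M+Z+ embryos tends to be higher in the first and lower here.

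Cct6a differed most, with a mean of 5113 in M+Z+ and 339.7 in M-Z+ embryos, a log2 ratio of -3.91. Lower ratios were found for 17.1% of all genes. Cct3 had means of 2770 and 298 (9.25-fold lower, log2 ratio -3.21), and Cct7 of 1163 and 150.1 (7.70-fold lower, log2 ratio -2.95). These are 3 of the 4 subunits whose yeast counterparts bind ATP weakly, and the remaining one, Cct8, was not called. A relation of the ratios to ATP binding was not tested. Among the subunits whose counterparts bind it tightly, Cct4 had means of 3020 in M+Z+ and 431 in M-Z+ embryos (6.99-fold lower, log2 ratio -2.81). Tcp1 had means of 6125 and 1197 (5.11-fold lower, log2 ratio -2.35), and Cct5 of 1126 and 319.8 (3.51-fold lower, log2 ratio -1.81). The 2 members not called were Cct8, with means of 2741 and 1601 (log2 ratio -0.78), and Cct2, with 1978 and 1490.1 (log2 ratio -0.41). Cct2 and Cct8 were also among the 3 members not called between M+Z+ embryos and control oocytes. Cct5, the other of those 3, was called lower here.

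Since the control oocyte means are in both tables that hold oocytes and embryos, the same ratio can be reached through them. Taken that way, the log2 ratios of M-Z+ over M+Z+ embryos differed from the direct ones by 0.06 to 0.11 for the 8 members. This checks the arithmetic and the scaling of the tables and is no independent measurement, because the libraries are the same.

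**Figure D2:**
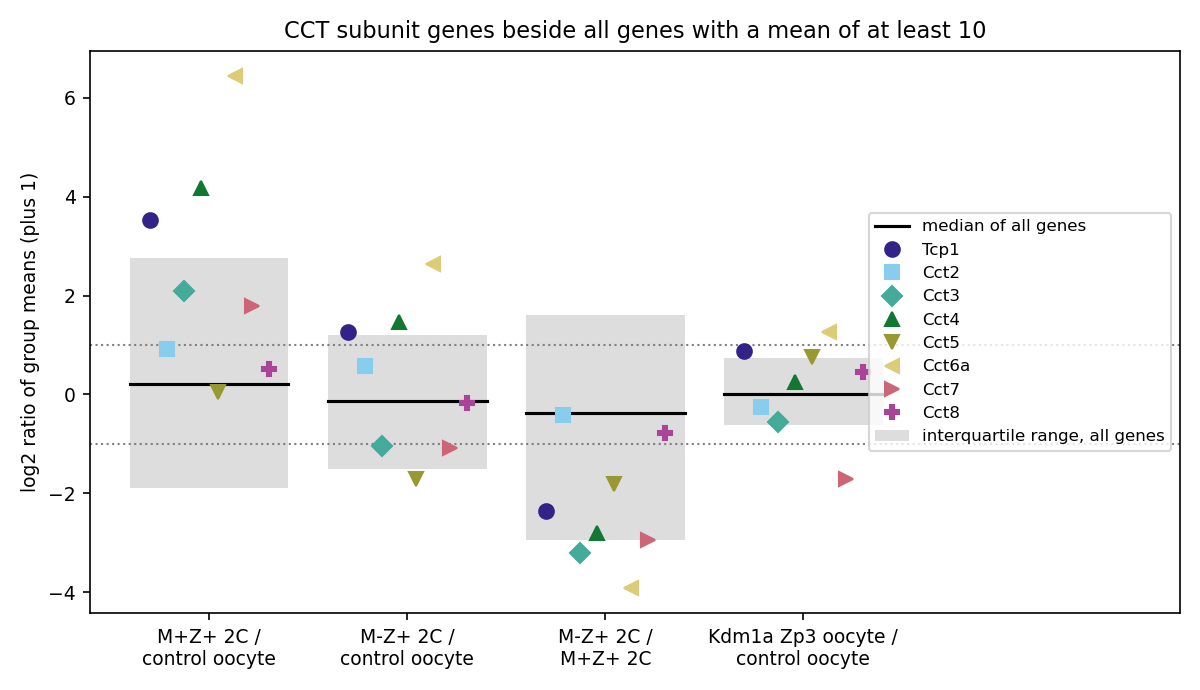
Log2 ratios of group means (plus 1) of the 8 CCT genes in the 4 comparisons, with grey bars for the interquartile range of all genes past the minimum, black lines for their median and dotted lines at a 2-fold ratio. The points lie at or above 0.04 for M+Z+ embryos over control oocytes and at or below -0.41 for M-Z+ over M+Z+ embryos, and on both sides of 0 in the other comparisons.

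Kdm1a Zp3 oocytes were compared with control oocytes to ask whether mRNA already differed before fertilization. Only Cct6a was called higher and only Cct7 lower among the 8 members. Of all 12690 genes, 19.4% were called higher and 15.6% lower, so for the members the shares called were close to the background or below it. The median log2 ratio was 0.35 for the members and 0.02 for all genes.

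Cct6a had a mean of 37.1 in control oocytes, beside 90.3 in those with the deletion (log2 ratio 1.26). Cct7 had means of 213 and 64.2, which is 3.28-fold lower (log2 ratio -1.71), and 8.11% of all genes had a lower ratio. Cct7 was thus lower in mutant than in control samples both in oocytes and at the 2C stage. Cct6a was higher in mutant oocytes and lower in mutant embryos. The remaining 6 members lay between -0.55 for Cct3 (406 and 277) and 0.89 for Tcp1 (340 and 629). Cct5 had means of 692 and 1169 (log2 ratio 0.76), so it was not lower in mutant oocytes, in contrast to the embryos. Mutant oocyte and mutant embryo libraries were finished with different kits, so stage and kit cannot be told apart in such contrasts. Cct8 (1219 and 1658), Cct4 (103 and 124) and Cct2 (665 and 556) differed less.

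The subunit proteins work in a fixed ratio, so their mRNA levels were also compared with each other. The measure was mean per kilobase of the longest coding transcript in GENCODE. These are levels of amplified mRNA, and the ratio of the proteins was not measured. For Cct6a, which that annotation lists as a processed transcript, its longest transcript was taken. In control oocytes, on the scale of the table with M+Z+ embryos, mean per kilobase was 34.6 for Cct6a, 97.5 for Cct4, 201 for Cct7, 317 for Tcp1, 480.4 for Cct3, 780.2 for Cct2, 868 for Cct5 and 1161 for Cct8. The highest level was therefore 33.5 times the lowest. In M+Z+ embryos the levels per kilobase ran from 694 for Cct7 through 892 for Cct5, 1467 for Cct2, 1665 for Cct8, 1767 for Cct4, 2039 for Cct3 and 3033 for Cct6a to 3637 for Tcp1. This is a 5.24-fold range. Cct6a thus stood lowest of 8 in control oocytes and second highest in M+Z+ embryos. Per kilobase of all exons of the gene, a length added after seeing the data, it was the highest there, at 2056 beside 1768 for Tcp1, and the range was 8.23-fold.

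In M-Z+ embryos the levels per kilobase had a 12.5-fold range on the scale of their table with oocytes. They ran from 62.4 for Cct7 through 143 for Cct6a, 153 for Cct3, 175 for Cct5, 179 for Cct4, 499 for Tcp1 and 680.4 for Cct8 to 777 for Cct2. Per kilobase of all exons the range was 26.5-fold. In that table the control oocyte levels spanned 34.1-fold, or 39.0-fold per kilobase of all exons. The narrower range in M-Z+ embryos than in control oocytes rests on Cct6a. Without it, an alternative chosen after seeing the data, the range was 11.9-fold in control oocytes, 5.24-fold in M+Z+ embryos and 12.5-fold in M-Z+ embryos. In Kdm1a Zp3 oocytes the range was 26.3-fold, from 26.3 for Cct7 to 693 for Cct8, and 56.7-fold per kilobase of all exons. Neighbours in these orders cannot be told apart or ranked with an error, for want of values per library.

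**Figure D3:**
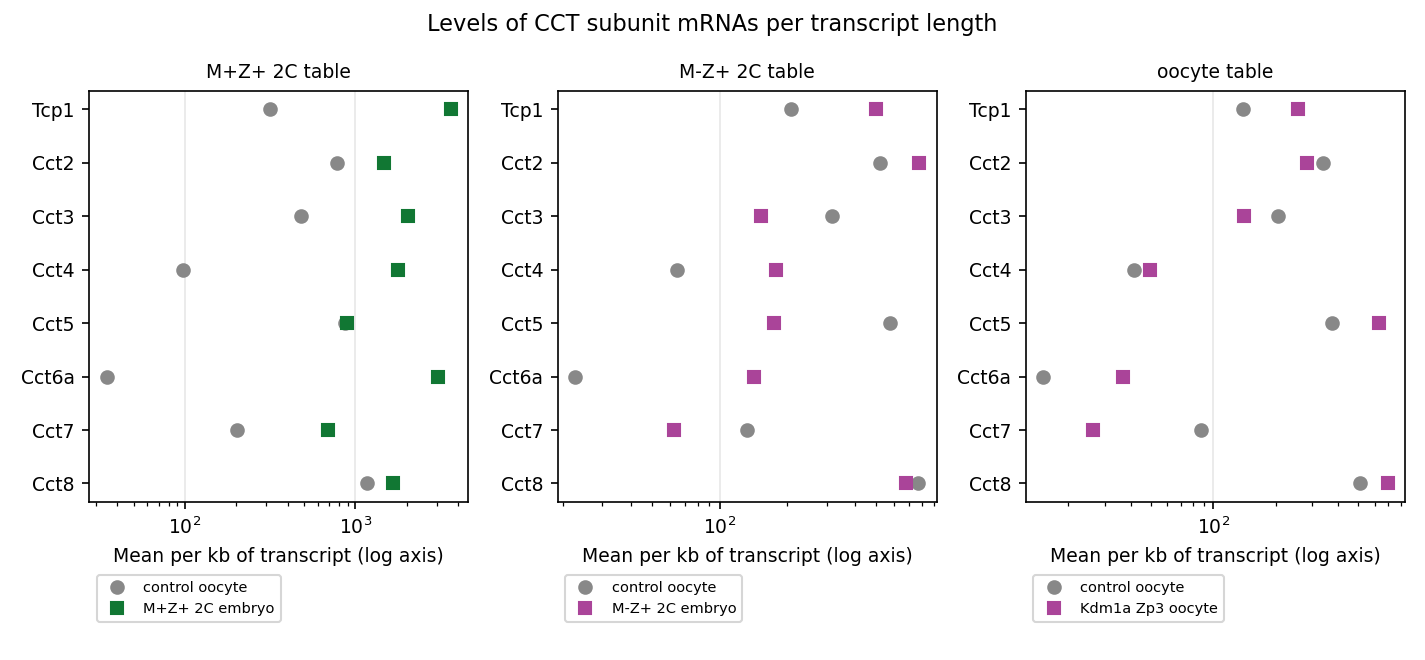
Level of each CCT gene per kilobase of transcript (log axis) in control oocytes (circles) and in M+Z+ embryos, M-Z+ embryos or Kdm1a Zp3 oocytes (squares), one panel for each table, on its own scale. M+Z+ embryos sit within 694 to 3637 and control oocytes of the same table within 34.6 to 1161, so the squares of that panel are closer together than its circles.

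Together the 8 means made up 0.0381% of the sum over all gene rows in control oocytes and 0.134% in M+Z+ embryos. The share was 0.0446% in M-Z+ embryos and 0.0504% in Kdm1a Zp3 oocytes. In M+Z+ embryos the summed share was thus higher than in the other 3 groups.

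Some reads of the members can also fit other genes. The authors weighted a read that fitted several loci down by the square of their number, and the counting is not stated to use strand, so reads of overlapping genes on opposite strands cannot be told apart. Cct6a (chromosome 5, 129786998 to 129846371, plus strand) shares 452 exonic bases with Psph, a gene of serine synthesis on the other strand, and 16.8% of the 50-base words of its transcript occur in Psph. Psph had a mean of 6.16 in control oocytes and 99.6 in M+Z+ embryos. Tcp1 (chromosome 17, 12915701 to 12925067, plus strand) shares 571 exonic bases with Acat3, and 22.2% of its 50-base words occur in Acat3, Acat2 or the pseudogene Tcp1-ps1. Acat3, an acetyl-CoA acetyltransferase gene, had means of 43.1 in control oocytes and 233 in M+Z+ embryos, and Acat2 of 55.3 and 358. At its other end Tcp1 shares 141 exonic bases with Mrpl18, a mitochondrial ribosomal protein gene on the opposite strand, which had means of 1130 in control oocytes and 1217 in M+Z+ embryos, and of 835 in M+Z+ and 612 in M-Z+ embryos. Cct8 (chromosome 16, 87483326 to 87495873, minus strand) shares 192 exonic bases, 6.10% of its words, with Usp16, which had means of 3869 and 10168. Cct7 (chromosome 6, 85451514 to 85468475, plus strand) shares 214 exonic bases with Pradc1, which had means of 49.6 and 11.5, and 8.28% of its words are shared. The values of these 4 members are uncertain to that extent. Between M-Z+ and M+Z+ embryos the log2 ratios were -1.79 for Psph, -2.31 for Acat3 and -1.77 for Acat2. They were -0.49 for Usp16 and 1.03 for Pradc1. The part of these genes in the ratios of the members was not tested. Cct2 (chromosome 10, 117051001 to 117063814, minus strand) and Cct5 (chromosome 15, 31590800 to 31601804, minus strand) share none of their 50-base words. In Cct3 (chromosome 3, 88297116 to 88321767, plus strand) and Cct4 (chromosome 11, 22990519 to 23003780, plus strand) the shared words were 2.13% and 0.657%. Pseudogenes named for Tcp1 and Cct3 had means of at most 1.67. All positions are of GRCm38.

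Genes that work with CCT or resemble its subunits were taken from lists given by name. For comparison, 40.8% of all genes were called higher and 35.0% lower between M+Z+ embryos and control oocytes. The shares were 28.1% and 32.5% between M-Z+ embryos and control oocytes, and 32.3% and 42.1% between M-Z+ and M+Z+ embryos. Between the 2 kinds of oocyte they were 19.4% and 15.6%. Genes below the minimum were not called. Whether the counts of a list differ from these shares was not tested. Prefoldin, which hands unfolded actin and tubulin to CCT, had 5 of 6 subunit genes in the tables. Between M+Z+ embryos and control oocytes 1 of these was called higher (Pfdn5, 305 in oocytes and 2178 in embryos, log2 ratio 2.83) and 3 lower, with a median of -1.36 beside 1.94 for the CCT genes. Pfdn4, one of the latter, had a mean of 5846 in control oocytes and 840 in M+Z+ embryos (log2 ratio -2.80). Between M-Z+ and M+Z+ embryos 2 prefoldin genes were called higher and 2 lower. Pfdn4 had means of 5417 in M-Z+ and 575 in M+Z+ embryos (log2 ratio 3.23), whereas Pfdn2 had 136.7 and 863 (log2 ratio -2.65). Pfdn5 went with the CCT genes in both comparisons, with 690.0 in M-Z+ and 1498 in M+Z+ embryos (log2 ratio -1.12), and Pfdn4 against them in both. Both comparisons use the M+Z+ libraries, so such a match or contrast is partly built in, here and in the lists below. Between M-Z+ embryos and control oocytes 1 was called higher and 1 lower, and between the 2 kinds of oocyte none was called.

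The phosducin-like proteins bind CCT and assist folding of its clients, and 2 of their 3 genes passed the minimum. Pdcl was called higher in M+Z+ embryos than in control oocytes (380 and 814, log2 ratio 1.10) and lower in M-Z+ than in M+Z+ embryos (556 and 101, log2 ratio -2.45). Pdcl3 went the other way in both, with log2 ratios of -3.12 and 1.08. Both were called lower in M-Z+ embryos than in control oocytes (-1.28 and -1.97), and neither was called between Kdm1a Zp3 and control oocytes.

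Of 5 chaperonin-like genes, Cct6b, a paralogue of Cct6a known from testis, had a mean of 0.557 in control oocytes and 165.5 in M+Z+ embryos. Cct8l1, a gene related to Cct8, was listed at 0 in control oocytes and had a mean of 136 in M+Z+ embryos. Both were listed at 0 in M-Z+ embryos and in Kdm1a Zp3 oocytes, and had means of 112 and 95.1 in the M+Z+ embryos of the direct comparison. Mkks, a chaperonin-like gene of the Bardet-Biedl syndrome complex, was called higher in both kinds of 2C embryo than in control oocytes, with log2 ratios of 2.42 in M+Z+ and 1.98 in M-Z+ embryos. Over the list, all 5 passed the minimum between M+Z+ embryos and control oocytes, with 3 called higher and 1 lower. Between M-Z+ embryos and control oocytes only 2 passed, with 1 called higher and 1 lower. Between M-Z+ and M+Z+ embryos 4 passed, with 0 called higher and 3 lower. Between the oocytes only 2 passed, and none was called. By contrast Hspe1, the lid of the mitochondrial chaperonin, had means of 1318 in control oocytes and 519 in M+Z+ embryos, and of 358 in M+Z+ and 1661 in M-Z+ embryos. Hspd1, which forms the mitochondrial ring, was not called in any of the 4 comparisons.

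Among genes for substrates, 16 actins, actin-related proteins and tubulins had a median log2 ratio of -1.68 between M+Z+ embryos and control oocytes, with 2 called higher and 10 lower. Tubb2b, a beta-tubulin, had a mean of 11566 in control oocytes and 61.3 in M+Z+ embryos (log2 ratio -7.54), and Tubb6 of 21718 and 1829 (log2 ratio -3.57). Tubb5, another beta-tubulin, was one of those called higher, from 684 to 1765 (log2 ratio 1.37). In M-Z+ embryos 2 were called higher and 8 lower than in control oocytes, and 7 higher and 4 lower than in M+Z+ embryos, the latter with a median of 0.55. Tubb3 had means of 82.6 in M+Z+ and 1206 in M-Z+ embryos (log2 ratio 3.85). In Kdm1a Zp3 oocytes 4 were called higher than in control oocytes and 0 lower, among them Tuba1c (404 and 1364, log2 ratio 1.75). The median of the tubulin and actin genes thus had the sign opposite to that of the CCT genes in both comparisons with M+Z+ embryos. The M+Z+ means enter both of these comparisons, so their signs are not independent.

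The list of WD40 proteins and other substrates was mixed, with 4 of 16 called higher and 7 lower between M+Z+ embryos and control oocytes (median -0.53). Ccne1, which codes for cyclin E, had a mean of 33.4 in control oocytes and 3068 in M+Z+ embryos, and of 2113 in M+Z+ and 20.6 in M-Z+ embryos (log2 ratios 6.48 and -6.61). Strap, a WD40 protein, had means of 817 and 9591 in the first comparison and of 6597 and 850.2 in the second (log2 ratios 3.55 and -2.95). Cdc20, an activator of the anaphase-promoting complex, had log2 ratios of 2.22 and -1.80. These 3 went with the CCT genes in direction, whereas Gnb4, a G protein beta subunit, went the other way with -2.14 and 1.99. Over the list 4 were called higher and 6 lower between M-Z+ and M+Z+ embryos, 1 higher and 5 lower between M-Z+ embryos and control oocytes, and 2 higher and 4 lower between mutant and control oocytes.

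Tubulin cofactors act on tubulin after CCT. Tbcc had a mean of 146 in control oocytes and 650.1 in M+Z+ embryos, and of 446 in M+Z+ and 4.08 in M-Z+ embryos (log2 ratios 2.15 and -6.46). Tbca, which binds beta-tubulin, was called higher in mutant than in control samples in all 3 comparisons, by 1.62 in oocytes, 2.20 in M-Z+ embryos over control oocytes and 1.85 over M+Z+ embryos. Over the 5 cofactors, 2 were called higher and 0 lower in M+Z+ embryos than in control oocytes, 2 higher and 2 lower in M-Z+ embryos than in oocytes, 1 higher and 2 lower in M-Z+ than in M+Z+ embryos, and 3 higher and 1 lower in mutant than in control oocytes.

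The heat shock factors HSF1 and HSF2 bind the heat shock element that was searched for in the promoter windows. Hsf2 had a mean of 131 in control oocytes and 743 in M+Z+ embryos, and of 506 in M+Z+ and 15.8 in M-Z+ embryos (log2 ratios 2.50 and -4.91). Hsf1 had means of 1715 and 3441 in the first comparison and of 2359 and 3200 in the second, where it was not called. Between M-Z+ embryos and control oocytes the log2 ratios were -2.37 for Hsf2 and 1.51 for Hsf1, and neither was called between the oocytes.

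**Figure D4:**
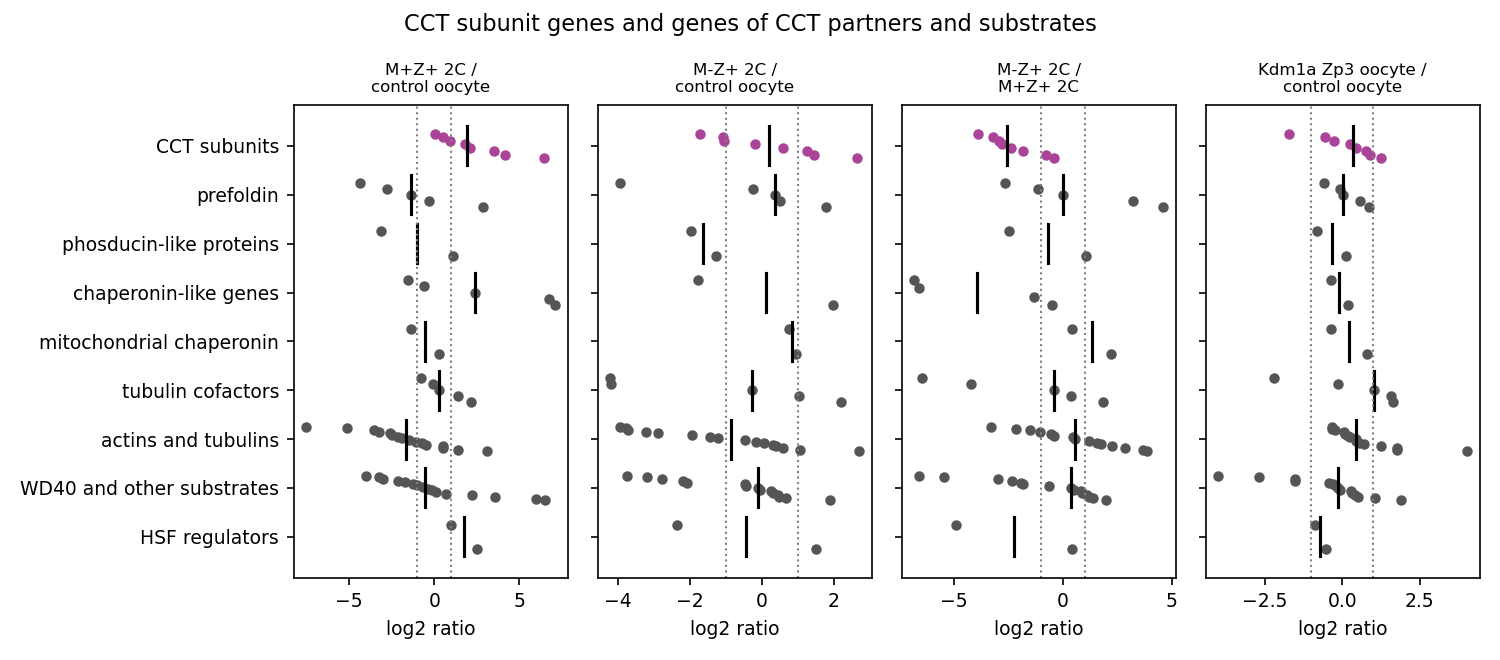
Log2 ratios of the CCT genes and of each list of partners, related genes, substrates and heat shock factors (points, genes reaching a mean of 10 in 1 of the groups) with the median of each list (black bars) and dotted lines at a 2-fold ratio. In the first panel the CCT genes have a median of 1.94 beside -1.36 for prefoldin and -1.68 for actins and tubulins, and in the third -2.58 beside 0.00 and 0.55, and points of most lists lie on both sides of 0.

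Genes with the pattern most like the members' median over the 4 log2 ratios were sought among 8190 candidates whose higher mean reached 50 in every table. The nearest by Euclidean distance over these 4 values were Zbed4 (0.479), Mysm1 (0.552), Rrp12 (0.554), Psma6 (0.555) and Nampt (0.582). Psma6 codes for a proteasome subunit and Rrp12 for a factor of ribosome assembly. The members themselves lay farther from their own median, from 1.67 for Cct3 to 5.36 for Cct6a, and 497 of the candidates were nearer than Cct3. The median therefore stands for no single subunit.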

How the data were processed

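Libraries of 3 samples of Kdm1a Zp3 oocytes and 3 of Kdm1a Zp3 M-Z+ embryos were made by direct lysis and Ovation RNA-seq V2 amplification with random and poly(dT) primers, and were finished with TruSeq reagents for embryos and another Illumina mRNA kit for oocytes. Tables of 4 comparisons with control groups of an earlier study were used. They hold group means, and 0 columns of per-library values were left unused. The deposited means are normalized scores: the authors cut first reads to 50 bp, required an average base quality of 15, aligned with BBMap to mm10 genes and repeats (95% identity, at most 1 indel, up to 2000 best alignments), weighted multi-locus reads down, median normalized the counts in R and averaged each group. Cufflinks and DESeq are listed in the submitters' processing notes with no version. The tables also hold the authors' own log2 fold changes, test flags, Monte Carlo shares, p-values, adjusted q-values and significance calls, which were not used, so no statistical test was run. A library's depth cannot be read from the means, and no interval is given.

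Embryo tables name their columns only a and b. The group named first in the table was taken as b and the second as a. The paper's legends for its source data of these comparisons give a and b the other way round. The assignment used here rests on the ranks below and on the Kdm1a means given above. The control oocyte column so assigned ranked genes like the named column of the oocyte table (Spearman 0.9999 over 13117 and 12301 genes), as did M+Z+ embryos in both of their tables. Scales of 1 group differed between tables by medians of 1.02 to 2.30. The 6 mutant libraries are grouped by their labels. Members and lists were chosen with earlier results of these data known. Named genes are the 8 members, Kdm1a, the 5 genes nearest to the members' median, and up to 4 genes of each list and comparison. The genes taken from lists were chosen among those with a 2-fold or greater ratio whose higher mean reached 50, and were not always the largest. Larger ratios left unnamed include Pfdn1 (-4.39), Hdac3 (-4.02) and Wrap53 (5.96) between M+Z+ embryos and control oocytes. Others are Tuba1a (4.03) between the oocytes and Tbcb (-4.21) between M-Z+ and M+Z+ embryos. Other genes named (markers, overlapping genes, Hspd1, Tubb5) were added after their values were seen. Protein sequences were not analysed here. The ratio and call steps were checked on simulated means with planted changes and no noise, which checks the arithmetic only. Alternatives were other pseudocounts, minimums and call thresholds and centring on the median of all genes. Python 3.11.15, numpy 2.4.6, pandas 2.3.3 and matplotlib 3.10.9 were used, with GENCODE and RefSeq for positions and promoters.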

Additional observations from a re-analysis of the deposited data

How the results depend on the processing

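No paired analysis was possible because the tables hold group means only, and for the same reason no library could be left out. Of 104 recomputed log2 ratios of members, 101 kept their direction and their side of the 2-fold threshold. The others came from centring on the median of all genes. Cct3 and Cct7 between M-Z+ embryos and control oocytes, at -0.91 and -0.94, were no longer called, leaving 1 member lower, and Cct5 between M+Z+ embryos and control oocytes went from 0.04 to -0.17, not called either way. With calls from 4-fold, M-Z+ embryos over control oocytes had 1 member higher and 0 lower. The oocyte comparison then had 0 higher and 0 lower. With calls from 1.5-fold, the oocyte comparison had 3 higher. The other counts of members called stayed within 1.5 times under the pseudocounts, minimums and thresholds tried. Dividing by the length of all exons of a gene, added after seeing the data, gave ranges of 56.7-fold in Kdm1a Zp3 oocytes, 8.23-fold in M+Z+ embryos and 26.5-fold in M-Z+ embryos in place of 26.3, 5.24 and 12.5. The cause of these differences was not tested.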
